A study of Mus musculus with 18 samples.

Results

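All 6 mouse actin genes were followed across the cells of the postnatal heart: Actc1 (cardiac α-actin), Acta1 (skeletal muscle α-actin), Acta2 (vascular smooth muscle α-actin), Actg2 (enteric smooth muscle γ-actin), Actb (cytoplasmic β-actin) and Actg1 (cytoplasmic γ-actin). They were taken by name and not by a measured value, though earlier results of these data were known at the choice. They are 6 of the 35808 nuclear genes in the count matrices. Actin monomers polymerize into filaments. In cardiomyocytes (CMs) the thin filament of the sarcomere is built mainly from cardiac α-actin, with skeletal α-actin as the second sarcomeric form, while Acta2 and Actg2 serve contractile filaments of smooth muscle and the cytoplasmic pair forms the cortical and migratory cytoskeleton of nearly every cell. Acta2 is also used by immature CMs and by activated fibroblasts, and serum response factor (SRF) drives many of these genes through a short DNA element, the CArG box.

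Hearts came from the strain Myh6/Esr1-Tomato, in which a Cre that tamoxifen activates is driven by the CM promoter of Myh6 and switches on tdTomato; per the study's methods tamoxifen reached labelled pups through their mothers soon after birth, and whether the injected hearts received it is not given in the sources used here. Single cells were dispensed into nanowells of ICELL8 chips and their transcripts counted by unique molecular identifier (UMI), with 1 library a chip: 2 libraries each of uninjected P4, P7 and P14 hearts, 6 of uninjected P28 hearts, and 6 further libraries of P28 hearts injected at P1 with a lentivirus carrying a hairpin against Jun (shJun) or a non-targeting hairpin (shNT). The well reports named 11 uninjected and 4 injected animals, and the chips of P4, like those of P7, carried the same 2 animals. Each sum of such a chip pools both animals, so the spread between the sums of P4, or of P7, does not measure that between animals. SDs and tests that take these sums as replicates carry this limit. Hearts were digested with an enzyme kit at P4 and P7 and by Langendorff perfusion at P14 and P28, so digestion and age cannot be told apart in any comparison of P14 or P28 with P4.

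Of 23475 wells with a cell, 19851 passed the filters and 16856 fell into clusters that could be named from marker genes, and the names are given as CM-like, fibroblast-like and so on. UMIs per library (cells passing, nuclear genes) ran from 5402646 to 75103261 and the median cell of a library held 4009 to 41530. The libraries shared barcodes, as preprinted chips do: 4671 of 5008 (93.27%) occurred in more than 1 library. UMIs were summed over the cells of 1 class in 1 library (in 1 animal for the injected hearts), which gave 81 sums of at least 20 cells, 12 CM-like and 69 of other classes, and a level is given as CPM, the UMIs of a gene scaled to the nuclear UMIs of its sum. The 9 CM markers summed to between 46530 and 134900 CPM in the 12 CM-like sums, but they were not absent elsewhere, where they reached 65860 CPM (mural-like cells of 1 shNT animal). They are given below beside the actins that they touch. In bulk sums of this kind, fewer cells with a transcript and less of it per cell cannot be told apart, so shares of cells with a UMI are given as well. Names in the well reports mark CM and non-CM (NCM) fractions. At P28 the chips split: 3 of them held 875, 542 and 637 CM-like cells, and the other 3 held 8, 3 and 9. The P28 fibroblast- and endothelial-like sums came from the latter chips, whereas at P4 these classes shared their chips with CM-like cells. In these classes, separation of the fractions and age cannot be told apart in a comparison of P28 with P4.

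The 6 genes lie on 6 chromosomes and all on the minus strand (GRCm38, GENCODE vM21). Actc1 spans chr2:114047282-114053548 with 7 exons, Acta1 chr8:123891769-123894751 with 7, Acta2 chr19:34241090-34255590 with 9, Actg2 chr6:83512905-83536265 with 9, Actb chr5:142903115-142906754 with 6 and Actg1 chr11:120345690-120348542 with 6. Their transcripts resemble one another, but counting could tell most of them apart. Of all 50-base windows of the Actc1 and Actg2 transcripts, 0 occurred in another gene, against 2.22% for Acta1, 0.35% for Acta2, 14.22% for Actb and 56.7% for Actg1, most of the last in the annotated pseudogene Gm12715. Values of Actg1 and Actb are therefore uncertain; among windows in the last 500 bases, 0% of those of Actg1 and 9.31% of those of Actb were shared.

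RefSeq promoters (GRCm38.p6, 250 bases before to 50 after the start) were at hand for 4 of the 6 genes, and the 100 bases before the start are shown because CArG boxes of actin genes lie near the start. Capitals mark the box, searched on both strands of the full 300 bases. The box ends 38 bases before the start of Actc1, 64 bases before that of Acta1 and 81 bases before that of Actg1, while the Acta2 window holds no exact match.
Actc1, chr2:114052876-114052975, minus strand: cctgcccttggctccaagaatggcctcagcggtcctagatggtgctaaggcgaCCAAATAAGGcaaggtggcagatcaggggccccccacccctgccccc
Acta1, chr8:123894776-123894875, minus strand: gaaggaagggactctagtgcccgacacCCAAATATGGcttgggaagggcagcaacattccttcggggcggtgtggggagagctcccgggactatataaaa
Acta2, chr19:34255374-34255473, minus strand: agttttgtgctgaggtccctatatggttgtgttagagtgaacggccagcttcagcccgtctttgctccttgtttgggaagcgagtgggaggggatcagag
Actg1, chr11:120348496-120348595, minus strand: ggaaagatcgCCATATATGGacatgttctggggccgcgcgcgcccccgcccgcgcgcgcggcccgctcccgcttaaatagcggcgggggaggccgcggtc
Of 32851 promoters of the same length, 535 (1.629%) hold such a box. Among the actin partners listed further on, it was found in 2 of 14 matched promoters of the thin filament list, 1 of 8 of the smooth muscle list, 2 of 27 of the cytoplasmic list and 3 of 7 of the list of SRF and its cofactors. These matches describe letters only.

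Actc1 was the dominant actin of CM-like cells in every sum. It took 88.04% and 88.43% of the UMIs of the 6 actins at P4, 83.31% in the only P7 sum, 91.57% and 93.73% at P14, and 87.51%, 92.47% and 82.83% at P28. Divided by transcript length, the P4 means were 90.70% Actc1, 4.73% Acta2, 2.95% Actb, 0.876% Acta1, 0.437% Actg1 and 0.298% Actg2. The P28 means were 89.28% Actc1, 4.13% Actb, 3.92% Acta1, 1.41% Acta2, 0.724% Actg1 and 0.530% Actg2. UMIs count captured transcripts, so this scaling may not be needed, and the unscaled means kept the same order. By these means Acta2 came second at P4 and after Actc1, Actb and Acta1 at P28. The place of Acta1 at P28 came from replicate 5, where it was the second actin (10.55% of actin UMIs). In both other P28 sums Acta2 stood above Acta1. The share of Acta2 was 6.36% ± 0.865 (SD, n = 2) of actin UMIs at P4 and 1.92% ± 0.684 (SD, n = 3) at P28 with no overlap, and the two-sided exact permutation test gave p = 0.1, the smallest that 3 sums against 2 allow. The Actb shares did not overlap either (3.74% ± 0.0681, n = 2, against 5.28% ± 1.82, n = 3), with an exact p of 0.4, and for Actc1 the exact p was 0.7. After Benjamini-Hochberg adjustment over the 24 shares tested, none was below 0.30. The P4 sums are chips of the same 2 animals, so their SDs and these tests do not cover the spread between animals at P4. The share plot gives these compositions for each sum.

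**Figure D1:**
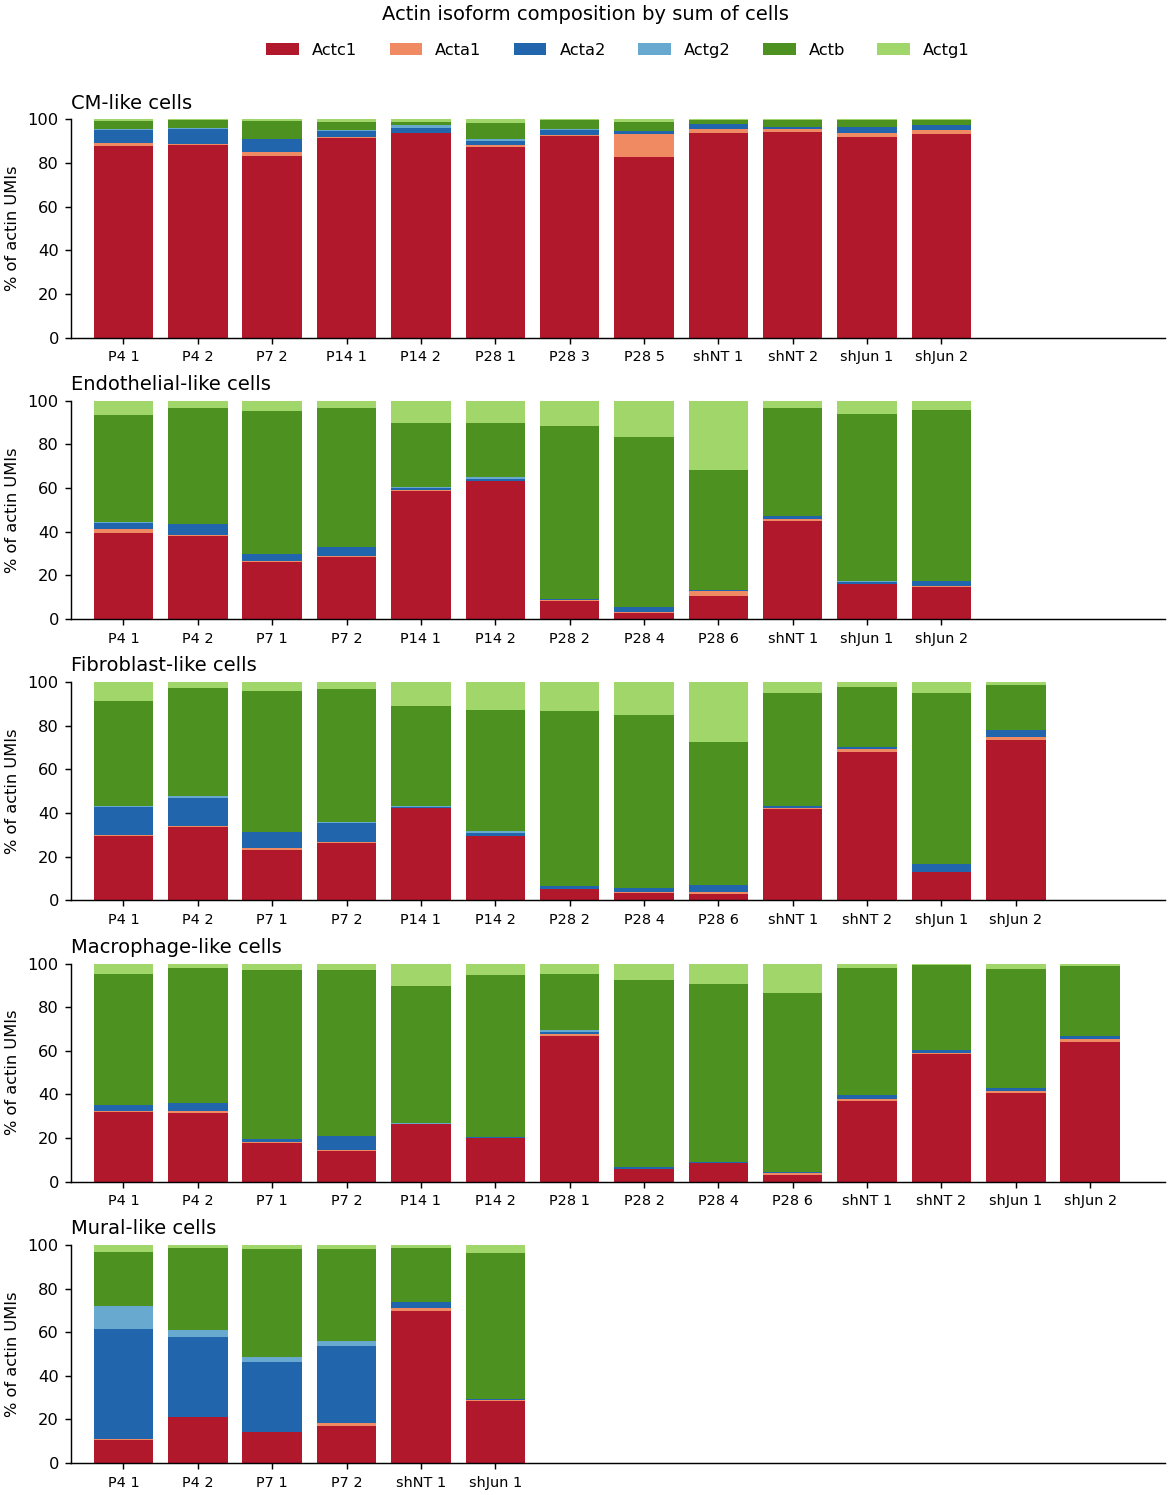
Share of the UMIs of the 6 actins (y axis, %) taken by each gene, 1 bar per sum of at least 20 cells, for 5 classes of cells, labelled by group and replicate. Actc1 takes 82.83% to 94.31% of every CM-like bar, Acta1 stands out in P28 replicate 5 (10.55%), Acta2 takes 32.07% to 50.76% of the P4 and P7 bars of mural-like cells and leads 1 of these 4 (P4 replicate 1).

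In absolute terms the level of Actc1 in CM-like cells was 6190 and 6242 CPM at P4, 5254 CPM at P7, 4559 and 6413 CPM at P14, and 6483, 8643 and 6680 CPM at P28. The P28 sums lay above all other sums of uninjected hearts, but that order depends on which P4 cells are counted: in the smaller P4 cluster, 119 of 353 CM-like cells, which atrial genes do not lead, Actc1 stood at 7832 and 7123 CPM, above 2 of the 3 P28 sums. The fitted log2 difference of 0.47 (SE 0.51) was smaller than its error allows to call (edgeR quasi-likelihood test, adjusted p = 0.665). The P7 sum rests on 23 cells; in the 16 CM-like cells of the other P7 library, too few for a sum, Actc1 stood at 7754 CPM, Acta1 at 26.5 CPM, Acta2 at 360.6 CPM, Actb at 549.9 CPM and Actg2 at 1.21 CPM. The transcript was found in nearly every CM-like cell: after each cell was thinned to 1000 UMIs, 92.2% to 97.1% of cells at P4, 89.6% to 91.5% at P14 and 98.2% to 99.6% at P28 held at least 1 Actc1 UMI. Other features of the sums moved with stage. Mitochondrial genes, which are left out of the CPM, took 20.68% and 20.05% of UMIs at P4, 34.61% at P7, 78.7% and 68.3% at P14 and 50% to 71.6% at P28. Erythroid markers, mostly globins, are in the CPM total and summed to 241.7 and 360.4 CPM at P4, 1192 CPM at P7, 78660 and 2600 CPM at P14 and 27070, 4803 and 11630 CPM at P28. Their part in the actin levels was not tested. Actc1 UMIs were common outside CM-like cells too, as described below.

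Acta1 had low and uneven levels until P28, when 1 library stood far above the rest. Its CM-like levels were 91.8 and 25.9 CPM at P4, 111.5 CPM at P7, 13.8 and 0.359 CPM at P14, and 49.4, 16.7 and 850.4 CPM at P28. The value at P14 replicate 2 is a single UMI, and 46.04% of the Acta1 UMIs of P4 replicate 1 and 56.72% of those of P7 replicate 2 came from 1 cell. With the 850.4 CPM library in, Acta1 was 2.63 log2 units higher at P28 than at P4 (SE 1.2, unadjusted p = 0.0428, adjusted p = 0.245, edgeR), and without that library the difference was −0.54 (adjusted p = 0.807).

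In that library (P28 replicate 5), Acta1 was not confined to a few cells. It was found in 497 of 637 CM-like cells, against 137 of 875 and 120 of 542 in replicates 1 and 3. At 1000 UMIs per cell the shares were 43.96% (95% exact Clopper-Pearson interval 40.06 to 47.91), 4.24% (3.0 to 5.80) and 1.11% (0.407 to 2.39); the intervals cover counting error only. In fibroblast-like cells of the other P28 chips, which should lack the gene, the share was 0% to 2.56% (median depth 9746 to 13950 UMIs), a level that the CM-like share of replicate 3 did not exceed. The library carried 2 animals, with 952.9 and 642.0 CPM. It was high in each of the 4 CM-like clusters of P28 (773.6, 698.2, 968.1 and 542.1 CPM for clusters 0, 5, 7 and 12), while the same clusters held 19.5 to 103.1 CPM in replicate 1 and 6.68 to 24.0 CPM in replicate 3. Cluster 12 is led by immune genes (Rgs1, Ccl4 and Cxcl2), and its macrophage markers summed to 1166 to 3321 CPM in the 3 libraries, against 42.4 to 145.1 CPM in the other 3 clusters. In the median of all 637 CM-like cells of replicate 5, Acta1 made up 7.69% of the UMIs of the 2 sarcomeric actins. In 7 of these cells it exceeded Actc1.

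Other genes, which took part in the clustering, stood apart in the same library. Nppb, which encodes B-type natriuretic peptide, ranged from 2136 to 3047 CPM over its 4 clusters and from 162.1 to 358.2 CPM over those of the other 2 libraries; Nppa, the atrial natriuretic peptide, from 257.8 to 335.8 CPM against 0 to 23.4 CPM; and Ankrd1, a stretch-responsive ankyrin repeat protein, from 1182 to 1729 CPM against 207.0 to 530.1 CPM. Cluster 7, which Nppb, Nppa and Ankrd1 lead, drew 369 of its cells from this library, 26 from replicate 1 and 14 from replicate 3. The median depth of the CM-like cells of this library was 5240 UMIs, close to the 5615 of replicate 1 and below the 34620 of replicate 3. These genes and libraries were singled out after the values were seen, the part of the library in the Acta1 level was not tested, and the plot by cluster shows all 3 libraries.

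**Figure D2:**
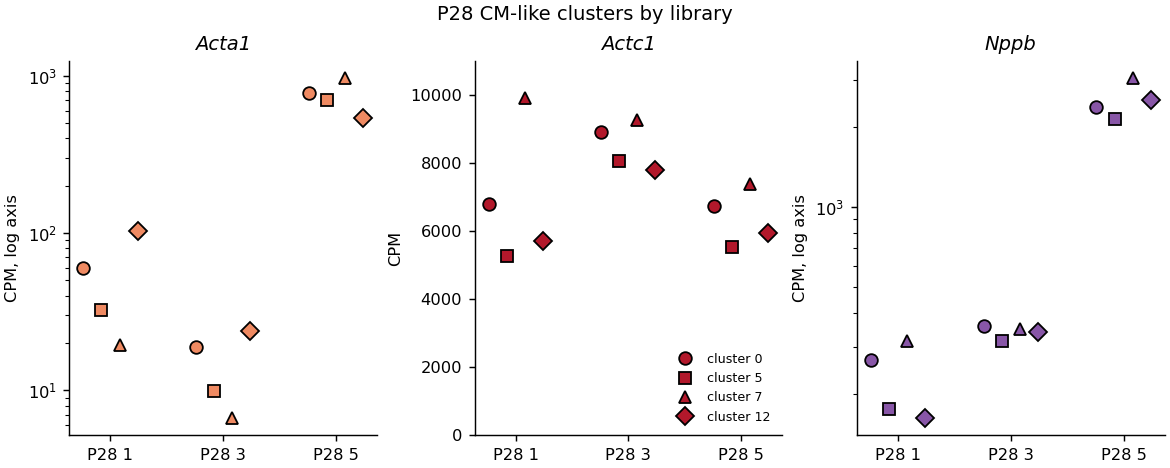
Level (y axis, CPM) of Acta1, Actc1 and Nppb in the 4 CM-like clusters of P28 (marker shapes), by library (x axis), with log axes for Acta1 and Nppb. All 4 clusters of replicate 5 lie between 542.1 and 968.1 CPM for Acta1 and between 2136 and 3047 CPM for Nppb, above every cluster of replicates 1 and 3, while Actc1 overlaps between libraries.

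The smooth muscle actin Acta2 was the second actin of CM-like cells at P4 and lower later. It stood at 404.1 and 492 CPM at P4, 378.5 CPM at P7, 138.6 and 171 CPM at P14, and 145.2, 240.7 and 97.6 CPM at P28, so the P4 and P7 sums lay above all 5 later ones. The fitted log2 differences from P4 were −0.86 (SE 0.52, adjusted p = 0.387) at P14 and −1.21 (SE 0.46, unadjusted p = 0.0170, adjusted p = 0.155) at P28, neither past the threshold of 0.05. With the sums made per animal the difference for Acta2 between P28 and P4 was −1.43 with an adjusted p of 0.0352 (edgeR). The share of cells with an Acta2 UMI at 1000 UMIs per cell was 24.9% to 28.3% at P4, 7.61% to 10.3% at P14 and 8.01% to 21.8% at P28, at median depths of 5240 to 34620 UMIs in the libraries. In macrophage-like cells, which should lack it, the share was 14.5% and 17.4% at P4 (median depths of 8752 and 13610 UMIs), 0% at P14 and 0.802% to 5.13% at P28.

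Mural cells, the pericytes and smooth muscle of vessels, hold far more Acta2 than CMs, so the 9 mural markers were read in the same CM-like sums. They summed to 168.4 and 203.9 CPM at P4, 472.5 to 489.7 CPM at P14 and 632.6 to 825.2 CPM at P28, and their part in the Acta2 levels was not tested. These markers do not follow Acta2 within mural-like cells. At P7, mural-like cluster 5 held 5354 and 6472 CPM of Acta2 beside 2828 and 2399 CPM of mural markers. Mural-like cluster 3 of P7 held 687.9 and 665.1 CPM beside 10050 and 7797 CPM. The list therefore cannot show how much Acta2-rich smooth muscle a sum holds. Within P4 both CM-like clusters held Acta2. Cluster 3, led by the atrial genes Sln, Myl7 and Nppa, had 332.5 and 444.4 CPM (114 and 120 cells), and cluster 7, led by Ttn and Mhrt, had 584.6 and 650.8 CPM (59 and 60 cells). Actc1 was also lower in the cluster led by atrial genes (5537 and 5977 CPM against 7832 and 7123 CPM), as was Actb (205.7 and 208.5 CPM against 419.9 and 434.8 CPM).

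Actg2, which smooth muscle of the gut uses most, was scarce in CM-like cells, at 21.3 and 15.7 CPM at P4, 4.16 CPM at P7, 23.0 and 83.5 CPM at P14, and 71.2, 19.8 and 18.9 CPM at P28. The 2 P14 sums lay above both P4 sums, 1 of them only just, with a log2 difference of 2.18 (SE 0.68, unadjusted p = 0.00512, adjusted p = 0.0908, edgeR). Without P14 replicate 1, Actg2 passed the threshold (2.81, adjusted p = 0.0312), and without P14 replicate 2 the difference was 1.117 (adjusted p = 0.442). At P28 the difference was 1.15 (SE 0.62, adjusted p = 0.329), and 1 of the 3 sums lay far above the others.

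Of the cytoplasmic actins, Actb had 266.6 and 260.8 CPM at P4, 523.2 CPM at P7, 185.5 and 99.7 CPM at P14, and 547 and 393.5 and 341.6 CPM at P28. The P28 sums lay above those of P4 and the P14 sums below, but the P4 cluster not led by atrial genes, at 419.9 and 434.8 CPM, lay above 2 of the 3 P28 sums. The log2 differences from P4 were 0.91 (SE 0.45, unadjusted p = 0.0584, adjusted p = 0.285) and −0.16 (SE 0.48, adjusted p = 0.891); without the P4 cluster led by atrial genes, an alternative chosen after seeing the data, that of Actb at P28 was 0.55 (adjusted p = 0.528), and over all 19 alternatives it ran from 0.33 to 1.13. The P7 sum also held 1849 CPM of fibroblast markers, against 304.7 and 315.7 CPM at P4, and their part in its Actb level was not tested. Actg1 had 56.8 and 22.5 CPM at P4, 34.9 CPM at P7, 58.8 and 74.6 CPM at P14, and 112.8, 32.9 and 76.3 CPM at P28, with log2 differences of 1.48 (SE 0.55, adjusted p = 0.154) and 1.10 (SE 0.51, adjusted p = 0.245) at P14 and P28. Gm12715, with which it shares windows, ran from 56.1 to 123.1 CPM in the CM-like sums.

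Markers of other cells rose in the CM-like sums over the same interval. At P28 against P4, 7 of 9 endothelial, 5 of 8 macrophage and 4 of 9 mural markers were called higher and 0 of 7 fibroblast markers, and the endothelial markers summed to 154.5 to 184.5 CPM at P4 and 604.4 to 1526 CPM at P28. The macrophage markers summed to 12.0 to 12.9 CPM and 131.1 to 241.2 CPM. Since Actb leads in those cells, its level in CM-like sums is given with these values, and their part in it was not tested.

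Across all 4 contrasts in CM-like cells, 0 of 6 actins passed the threshold. As background, 0.153% of 15694 genes tested were called between P7 and P4, 3.16% between P14 and P4, 4.43% between P28 and P4 and 0.0319% between P28 and P14, with 2243, 2934, 2973 and 1515 genes at an unadjusted p under 0.05. DESeq2 called 0, 1, 0 and 0 of the 6, given here without its share of all genes called.

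**Figure D3:**
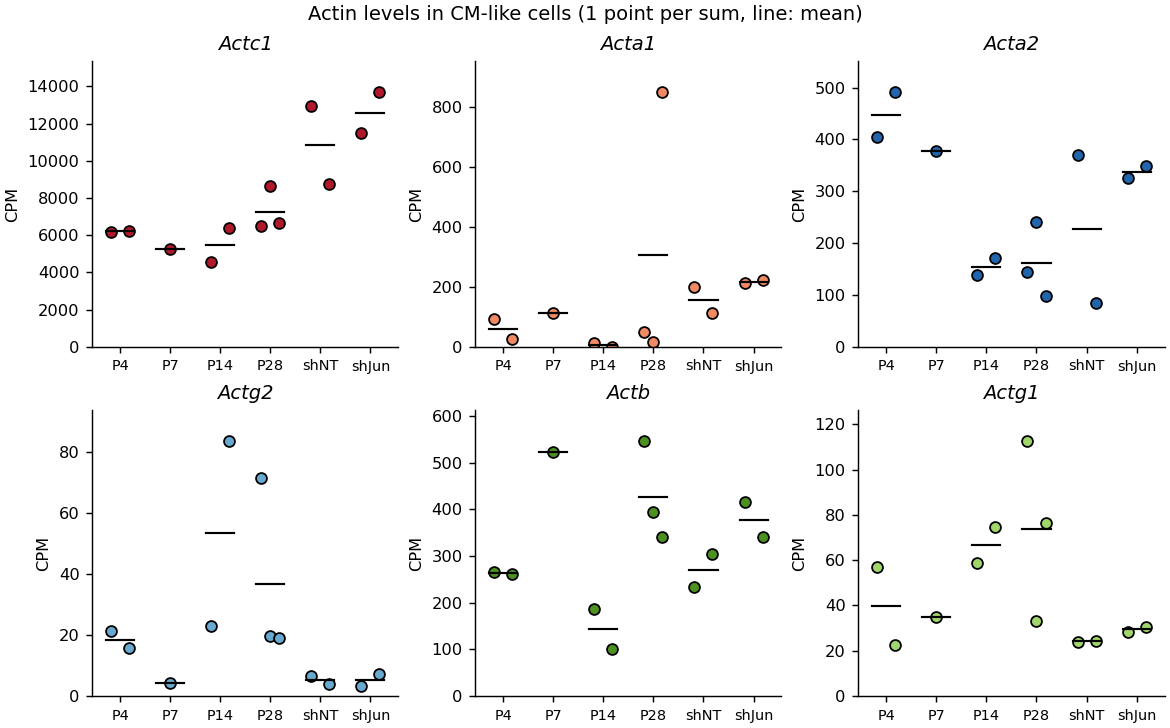
Level (y axis, CPM, linear) of each actin in CM-like cells by group (x axis); each point is 1 sum of at least 20 cells (1 library, or 1 animal for shNT and shJun) and the line is the mean. Acta2 lies at 404.1 and 492 CPM at P4 and at 240.7 CPM or below at P14 and P28, and 1 P28 sum holds 850.4 CPM of Acta1 against at most 49.4 CPM in the other 2.

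Lists of genes that work with actin were read in CM-like cells at P28 against P4. Of 17 genes of the striated thin filament and its anchors, 1 was called higher and 1 lower (2.58% and 1.85% of all genes tested), with a median log2 difference of 0.020 against 0.0043 over all genes. Tnni1, the slow skeletal troponin I of the immature heart, fell from 3242 and 3653 CPM at P4 to 1.43, 3.82 and 22.7 CPM at P28 (log2 difference −8.37, SE 1.06, adjusted p = 0.000287, edgeR). Xirp2, an actin-binding protein of the intercalated disc, rose from 136.7 and 80.1 CPM to 428.8, 423.5 and 567.2 CPM (2.38, SE 0.46, adjusted p = 0.00616).

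Of 10 smooth muscle contractile genes 0 rose and 1 fell: Myl9, a regulatory myosin light chain, from 772.3 and 989.4 CPM to 18.5, 63.0 and 71.6 CPM (−3.85, SE 0.54, adjusted p = 0.000736), and the median of the list was 0.357. Of 28 genes of cytoplasmic actin dynamics, Myh9, a non-muscle myosin heavy chain, rose from 24.2 and 14.0 CPM to 92.0, 63.2 and 44.0 CPM (2.03, SE 0.54, adjusted p = 0.0380), and Tmsb10, which binds actin monomers, fell from 190.8 and 174.4 CPM to 36.7, 33.0 and 73.4 CPM (−1.72, SE 0.45, adjusted p = 0.0364); the median was 0.0799. None of 8 genes for SRF and its cofactors was called (0 higher, 0 lower, median 0.334). At P14 against P4, Tnni1, Myl9 and Tmsb10 were likewise called lower and Xirp2 and Lmod2, a filament nucleator, higher (backgrounds of 1.41% lower and 1.75% higher).

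In the other main classes of cells Actb led in most groups. Its mean share of actin UMIs at P4, P7, P14 and P28 was 48.8%, 62.6%, 50.6% and 75.2% in fibroblast-like cells, 51.0%, 64.8%, 27.1% and 70.9% in endothelial-like cells and 61.0%, 76.9%, 68.59% and 68.85% in macrophage-like cells. The last of these means joins 25.7% in P28 replicate 1 with 81.4% to 86.1% in the other P28 libraries. Per transcript length the P28 means of Actb were 74.53%, 69.49% and 66.70%, with Actg1 next in the first 2 (18.10% and 19.11%). The exception was P14 in endothelial-like cells, where Actc1 took 61.03% of actin UMIs (67.07% per length) and Actb 27.13% (22.90%). The level of Actb in P4 sums was 3111 and 3234 CPM in macrophage-like, 2195 and 2721 CPM in mural-like, 1977 and 2081 CPM in endothelial-like and 1627 and 1942 CPM in fibroblast-like cells. At P7 the order was the same, with 4562 and 4931, 3165 and 2960, 2588 and 2664, and 2264 and 2085 CPM, and at neither stage did neighbours in it overlap, though with 2 libraries a class no test was made. At P14 every sum of these classes stood at 2023 CPM or below. Erythroid markers in the fibroblast-, endothelial- and macrophage-like sums were between 393.5 and 1716 CPM at P4, 3420 and 9838 CPM at P7, 16040 and 196200 CPM at P14, and 3509 and 190100 CPM at P28, and their part in these levels was not tested.

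In fibroblast-like cells, Acta2 was lower at P14 and P28 than at P4 and P7. It stood at 436.2 and 512 CPM at P4, 264.1 and 301.8 CPM at P7, 6.77 and 20.9 CPM at P14, and 20.2, 35.3 and 82 CPM at P28. Every P14 and P28 sum lay below every P4 and P7 sum, a divide that is also that of the digestion, so age and digestion cannot be told apart. Between P7 and P4, digested alike, the log2 difference was −0.65 (SE 0.57) and was not called. The log2 difference from P4 was −4.91 (SE 0.71, adjusted p = 0.000763) at P14, where the median of all genes was −0.35, and −3.23 (SE 0.54, adjusted p = 0.00167) at P28 (edgeR); both are from the 9 fibroblast-like sums and 16357 genes, of which 1.61% and 2.61% were called (0.85% and 1.59% lower). Both differences kept their sign and side of the threshold in all 18 alternatives run, from −5.56 to −4.43 and from −3.96 to −2.60. The sums rested on 365 and 415 cells at P4, 109 and 31 at P14, and 129, 456 and 117 at P28.

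Markers of other cells were read beside this fall. All 9 mural markers had UMIs in the fibroblast-like sums of every stage. They summed to 349.3 to 423.0 CPM at P4, 252.0 to 371.9 CPM at P14 and 179.3 to 272.0 CPM at P28. At P14 and P28 0 of 9 was called, but this list does not follow Acta2 within mural-like cells, as given above. Erythroid markers summed to 393.5 and 466.7 CPM at P4, 144300 to 192800 CPM at P14 and 17840 to 100200 CPM at P28. The part of either in the fall was not tested. CM markers summed to 9093 and 9309 CPM at P4 and 8454 and 5889 CPM at P14, with 0 of 9 called, and to 824.1 to 1118 CPM at P28, with 8 of 9 called lower. Acta2 stood at 43.6 and 38.6 UMIs per 100 Actc1 UMIs in the fibroblast-like sums of P4, against 6.53 and 7.88 in the CM-like sums of the same libraries. Of the smooth muscle list, 3 of 10 genes fell with Acta2 at P28 (Myl9, Des and Cnn1), with a list median of −1.76. Actg2 in the same cells was 16.0 and 34.0 CPM at P4 and 1.98, 1.18 and 1.64 CPM at P28 (log2 difference −3.89, SE 1.07, adjusted p = 0.0618).

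Actc1 was also read outside CM-like cells, at 999.8 and 1325 CPM at P4, 814 and 900.2 CPM at P7, 773.1 and 401.2 CPM at P14, and 109.1, 63.6 and 77.6 CPM at P28 in fibroblast-like cells. The P28 sums lay far below the rest, and Actc1 fell by 3.71 on the log2 scale between P4 and P28 (SE 0.41, adjusted p = 2.6e-05, edgeR). In endothelial-like cells it was 1595 and 1487 CPM at P4, 1018 and 1181 CPM at P7, 1505 and 1992 CPM at P14, and 244.4, 52.5 and 199.5 CPM at P28, a fall of 3.08 (SE 0.45, adjusted p = 0.000555; 2.74% of 14145 genes called). Acta2 fell there too, from 106.5 and 200.7 CPM at P4 through 28.5 and 31.1 CPM at P14 to 14.1, 44.4 and 6.54 CPM at P28 (−2.66, SE 0.62, adjusted p = 0.0227). For Acta2 the call was lost without P28 replicate 2 (−2.34, adjusted p = 0.0674, edgeR) and without P4 replicate 2 (−2.11). Mural markers were not lower in the endothelial-like sums (322.6 to 327.7 CPM at P4 and 391.2 to 819.7 CPM at P28). That list, however, does not follow Acta2 within mural-like cells. Sums of 10 or more cells, which bring in the few such cells of the chips rich in CMs, ended the calls of Actc1 in fibroblast-like cells (−0.72, adjusted p = 0.924) and endothelial-like cells (−1.27, adjusted p = 0.525) and of Acta2 in the latter (−2.001, adjusted p = 0.176), all by edgeR.

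CM markers moved with Actc1. In the endothelial-like sums they totalled 11320 and 12740 CPM at P4, 15490 to 19130 CPM at P14 and 1238 to 3031 CPM at P28, with 6 of 9 called lower at P28, and 9 of 17 thin filament genes were called lower there and 10 of 17 in fibroblast-like cells (background 1.52% and 1.59%). The P28 sums of both classes came from the chips that held 8, 3 and 9 CM-like cells. Actc1 per 100 UMIs of the 9 CM markers was 6.95 to 13.9 (median 10.3) over the 12 CM-like sums and 1.64 to 20.2 (median 9.63) over the 69 others, and at P4 it was 12.1 and 12.0 in CM-like, 11.0 and 14.2 in fibroblast-like and 14.1 and 11.7 in endothelial-like cells. Wells reported without a cell held Actc1 as well, at 429 UMIs in 90 such wells, 390 of them on the chips of the injected hearts, against 22 of Actb and 11 of Acta2. The part of CM transcripts in the Actc1 level of other cells was not tested.

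In macrophage-like cells 0 of 6 actins passed the threshold in any contrast (0.0358%, 0.322% and 0.152% of 11168 genes called at P7, P14 and P28 against P4), and in endothelial-like cells 0.0141% and 1.33% of genes but 0 actins were called at P7 and P14, and in fibroblast-like cells 0.0428% and 0 actins at P7. Without P28 replicate 1, 1 actin was called in macrophage-like cells at P28, given here without the share of all genes called in that fit. Acta2 was 138.8 and 178.5 CPM at P4, 71.3 and 416.7 CPM at P7, 3.43 and 8.81 CPM at P14, and 67.04, 18.7, 11.7 and 15.6 CPM at P28, so all P14 and P28 sums lay below those of P4 and P7, while P4 and P7 overlapped. The plot of the 3 classes sets Acta2, Actc1 and the CM markers over each other.

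**Figure D4:**
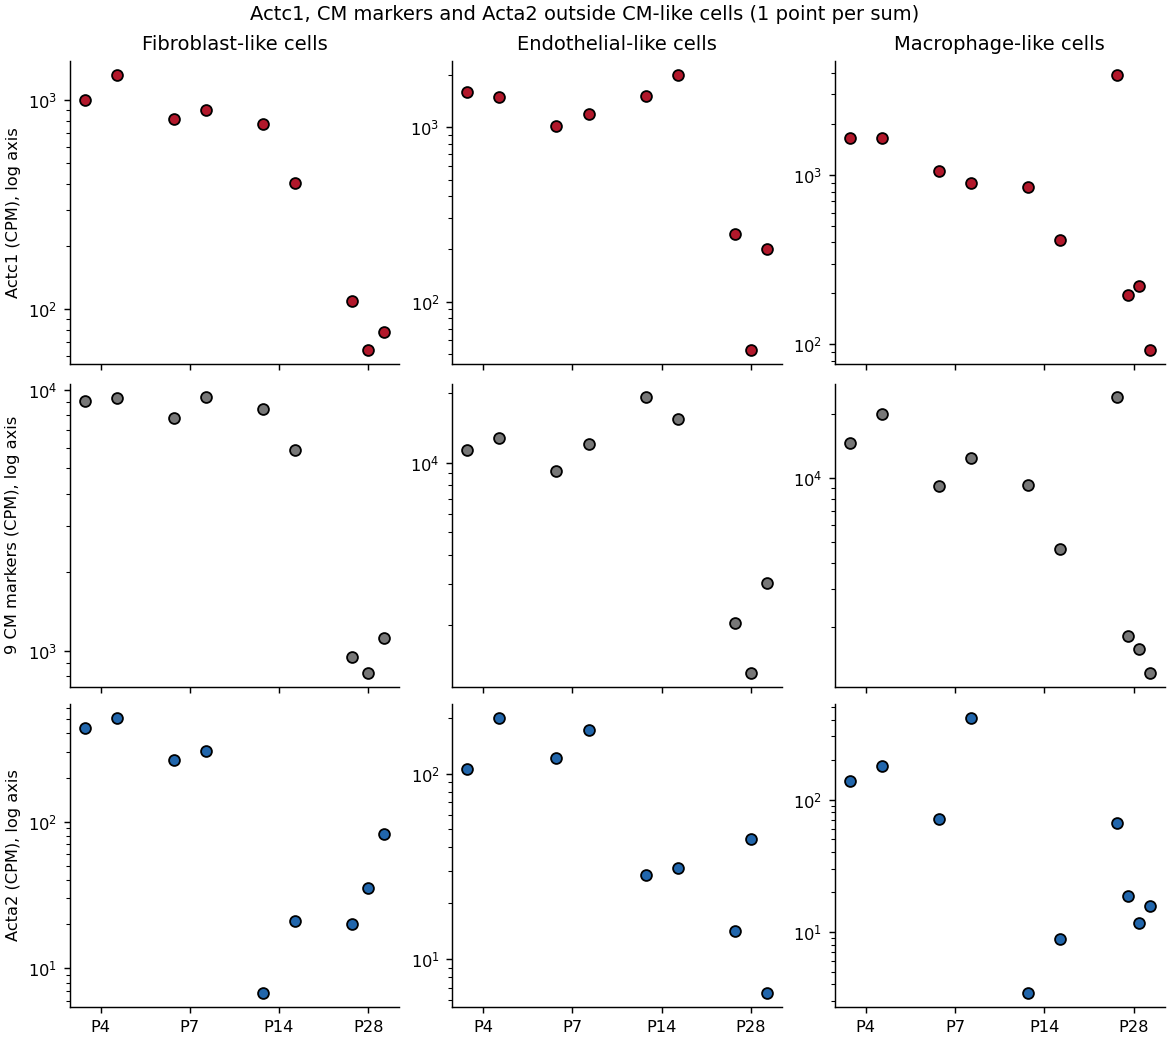
Levels (y axes, CPM, log) of Actc1, of the 9 CM markers summed and of Acta2 in fibroblast-, endothelial- and macrophage-like cells by stage (x axis), 1 point per sum. In fibroblast- and endothelial-like cells the P28 sums lie below all earlier ones for Actc1 (at most 109.1 and 244.4 CPM) and for the CM markers (at most 1118 and 3031 CPM), Acta2 lies at 82 CPM or below in all P14 and P28 sums, and 1 P28 macrophage-like sum stands high for Actc1 (3914 CPM) and CM markers (23880 CPM).

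Among the classes described here, mural-like cells of P4 and P7 held the highest levels of Acta2 and Actg2. At P4 the 2 libraries held 4501 and 2611 CPM of Acta2, 900.8 and 229.9 CPM of Actg2 and 2195 and 2721 CPM of Actb, and at P7 2053 and 2457 CPM of Acta2, 131.8 and 171 CPM of Actg2 and 3165 and 2960 CPM of Actb. Acta2 stood above Actb in P4 replicate 1 only. Of actin UMIs, Acta2 took a mean of 43.63% at P4 and 33.63% at P7, Actb 31.40% and 45.91%, and Actg2 6.69% and 2.25%. Per length, Acta2 took 39.12% of the actins at P4 and 30.49% at P7, Actb 29.79% and 44.16%, and Actg2 9.17% and 3.12%. None of the 6 actins was called between the stages (0.052% of 11537 genes were). A single cell gave 55.66% of the Actg2 UMIs of P4 replicate 1 and another 32.34% of those of replicate 2, so these levels rest on few cells.

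At P7 the mural-like cells formed 2 clusters, and actins and smooth muscle genes, which were left out of the clustering, differed between them. Cluster 5 (50 and 44 cells, led by Map3k7cl and Mustn1) had 5354 and 6472 CPM of Acta2, and cluster 3 (119 and 102 cells, led by the pericyte genes Kcnj8 and Higd1b) had 687.9 and 665.1 CPM. Actg2 followed, at 446.5 and 520.8 CPM against 1.69 and 14.9 CPM, and so did Myh11, the smooth muscle myosin heavy chain, at 3196 and 3260 CPM against 169.4 and 116 CPM, and Tagln, an actin-binding protein of smooth muscle, at 1188 and 1087 CPM against 31.7 and 24.8 CPM. Actb did not separate them (3608 and 2764 CPM against 2981 and 3048 CPM). Mural markers summed to 2828 and 2399 CPM in cluster 5 and to 10050 and 7797 CPM in cluster 3. Acta2 UMIs outnumbered those of Actb in 54 of 94 cells of cluster 5 (57.45%), in 14 of 221 cells of cluster 3 (6.34%) and in 58 of 144 mural-like cells of P4 (40.28%). These are descriptions of clusters and carry no test.

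**Figure D5:**
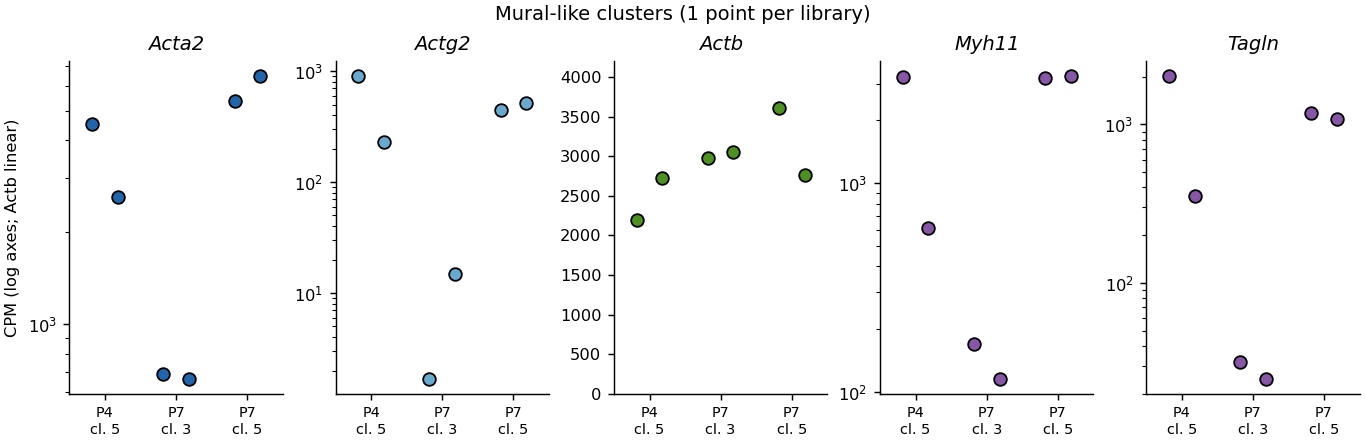
Level (y axis, CPM; log axes except for Actb) of 3 actins and of Myh11 and Tagln in the mural-like cluster of P4 and the 2 of P7 (x axis), 1 point per library. Acta2 and Actg2 are high with Myh11 and Tagln in cluster 5 of P7 and low in cluster 3, while Actb stays between 2195 and 3608 CPM in all 3 clusters.

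At P14 mural-like cells numbered 22, with no sum of 20, and at P28 no cluster took that name. In the injected hearts the 2 mural-like sums held 234.7 CPM (shNT) and 19.7 CPM (shJun) of Acta2, far below P4 and P7, beside 65860 and 7066 CPM of CM markers and 6061 and 872.4 CPM of Actc1. Erythroid markers summed to 13680 CPM in the shNT and 392900 CPM in the shJun sum, against 519.7 to 27570 CPM at P4 and P7, their part in the Acta2 level was not tested, and with 1 sum per hairpin no test was made.

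The last comparison asks whether knockdown of Jun, a subunit of the transcription factor AP-1, altered the actins of P28 hearts. The target was lower in CM-like cells of both shJun animals: Jun stood at 54.3 and 64.7 CPM in shNT and at 26.9 and 31.6 CPM in shJun (log2 difference −1.08, SE 0.23, unadjusted p = 0.00355, adjusted p = 0.9999 by edgeR), which does not pass the threshold. Actc1 had 12940 and 8765 CPM in shNT and 11480 and 13720 CPM in shJun, with a log2 difference of 0.15 (SE 0.29), and the groups overlapped. Of the 927 CM-like cells of shJun replicate 2, 382 belonged to a cluster led by liver genes (Alb, Ttr, Hpx and Apoa1), and without the CM-like clusters led by liver or immune genes, left out after the data were seen, the difference of Actc1 was 0.16 (adjusted p = 1.0, edgeR). Acta1 had 200.6 and 111.2 CPM in shNT against 213.9 and 221.5 CPM in shJun, and Actb 232.8 and 305.3 CPM against 415.9 and 340.4 CPM. Actg1 ran from 23.8 to 24.4 CPM against 28.4 to 30.7 CPM, and Actg2 from 4.02 to 6.67 CPM against 3.33 to 7.15 CPM. Acta2 had 370.2 and 84.2 CPM against 325.3 and 349.1 CPM, with 1 shNT animal low on chips 3 and 4 alike (76.02 and 93.3 CPM, where shJun cells of the same chips had 340.5 and 356.9 CPM).

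In fibroblast-like cells Acta2 was higher in shJun, at 117 and 222.4 CPM against 33.8 and 41.0 CPM, a log2 difference of 2.14 (SE 0.59, unadjusted p = 0.00824, adjusted p = 1.0, edgeR). Jun was not lower in these shJun sums, at 199.9 and 77.7 CPM against 59.3 and 122.5 CPM in shNT (log2 difference 0.54, SE 0.67). CM markers in the same sums were 18200 and 42530 CPM in shNT and 4854 and 53450 CPM in shJun, so they did not separate the hairpins, and all 9 mural markers had UMIs, at 496.0 to 1093 CPM in shNT and 839.4 to 918.6 CPM in shJun. edgeR called 0 genes in CM-like (17863 tested), fibroblast-like (13736) and macrophage-like cells (12675, with 5 actins tested), a background of 0%, with 386, 575 and 603 genes at an unadjusted p under 0.05, and DESeq2 called 11, 85 and 93. None of the actins was called by edgeR. The animals share chips in pairs of 1 shNT and 1 shJun heart, and a fit with the chips as a block called 0 actins.

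Over all 81 sums, each actin had its own closest companions by Pearson correlation of log2(CPM + 1) among 9599 genes with a mean of at least 10 CPM. These correlations mix classes, stages and depth and share libraries, and are given as descriptions. Actc1 was closest to Tnni3 (0.966), Myl3 (0.965) and Myh6 (0.953), which encode cardiac troponin I, a ventricular myosin light chain and α-myosin heavy chain. Acta1 was closest to Aldoa (0.758), Ptgds (0.706) and Nppb (0.702), Acta2 to Myl9 (0.812), Klhl23 (0.802) and Fam162a (0.769), and Actg2 to Mlf1 (0.649), Map3k7cl (0.636) and Kcne1 (0.631). Actb was closest to Arpc1b, a subunit of the Arp2/3 complex that branches actin filaments (0.892), Tpm3, a cytoplasmic tropomyosin (0.880), and Ctsz (0.852). Actg1 was closest to Gm12715 (0.811), whose sequence it shares, and then to Pfn1, profilin (0.772), and Arpc3, a further Arp2/3 subunit (0.771). Within the 12 CM-like sums alone the values were lower for most of these, for example 0.367 for Arpc1b and 0.0303 for Map3k7cl. Between the actins, Acta2 and Actg2 reached 0.628 and Actb and Actg1 0.560, while Actc1 and Actg1 stood at −0.621.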

How the data were processed

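The authors deposited raw UMI counts per gene and well for each ICELL8 chip, with well reports naming each well's heart and content; the submitters' processing notes name mm10, STAR 2.5.2b, featureCounts and Subread 1.4.6-p1. The counts were used as deposited, without mitochondrial genes and added sequences such as tdTomato. Groups came from the labels, animals and hairpins from the well reports. The members and gene lists were chosen with earlier results of these data known. Thresholds for naming clusters were set after marker levels, but not actin levels, had been seen.

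Cells with at least 500 genes and a log10 UMI total within 2 SD of their group were kept; the study applied that cutoff to its cells at large, which was run as an alternative. No doublet caller was used, since wells had been imaged. Cells were scaled to 10000 UMIs, reduced to 10 principal components and clustered (30 neighbours, resolution 0.8, or 1 for injected hearts; scanpy 1.11.5, leidenalg 0.10.2), leaving actins and list genes out. A cluster was named from markers of its class, at least 3 of them detected in 20% of its cells. Sums of at least 20 cells were tested with edgeR 4.0.16 (R 4.3.3): TMM, filterByExpr, quasi-likelihood test, Benjamini-Hochberg adjusted p under 0.05 over all genes, 1 fit per class over all stages or over both hairpins. The study's own test across cells was not repeated, since cells are not replicates. Shares of actin UMIs were compared by two-sided exact permutation (scipy 1.17.1). Shares of cells with a UMI were read after thinning to 1000 UMIs per cell. P-values measure the spread between sums, which at P4 and at P7 is that between chips of the same 2 animals.

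The fitting script was tested on simulated data. For CM-like cells at P28 against P4 it recovered 28 of 100 changes of 4-fold and 86 of 100 of 16-fold. For shJun against shNT it recovered 32 and 81 of 100, so many 4-fold changes would go uncalled. Named genes were the 6 actins, up to 3 genes per list and direction with the smallest p among those called in CM-like cells between P28 and P4, and the 3 genes most correlated with each actin. The labels of shNT and shJun hearts give no replicate numbers; shNT and shJun animals of 1 number here shared chips, and the correlation of their deviations from the group means over 2 pairs was 0.375 for CM-like, 0.110 for fibroblast-like and 0.0862 for macrophage-like sums. Alternatives were DESeq2 1.42.0, no filter on low counts, other cell minimums (10 and 50), cells called one by one, thinning to 5000 UMIs, sums per animal, fits of 2 stages, the block and leaving out each replicate.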

Additional observations from a re-analysis of the deposited data

Results flagged for a closer look

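Dixon's criterion was applied to groups of at least 4 sums, which only the macrophage-like and T cell-like cells of P28 formed. No other class or stage and no injected heart could be flagged. Over the 24 sets of 4 sums examined, 13 values stood apart from the rest of their group, which chance alone meets in about 1 in 20. All 13 came from 1 library, P28 replicate 1, which is the chip with 875 CM-like cells. The values are not independent of one another.

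In macrophage-like cells of this library (39 cells) Actc1 reached 3914 CPM against 92.05 to 219.7 CPM in the other P28 libraries, and 66.84% of actin UMIs against 3.03% to 8.34%. Acta2 stood at 67.04 CPM against 11.7 to 18.7 CPM, Actg2 at 43.9 CPM against 1.34 to 5.38 CPM, and Actb took 25.7% of actin UMIs against 81.4% to 86.1%. In T cell-like cells (22 cells) Actc1 reached 7106 CPM against 41.0 to 268.3 CPM and 85.9% against 1.60% to 9.28%. Acta1 there stood at 141.6 CPM against 5.35 to 5.47 CPM and 1.71% against 0.185% to 0.271%, Acta2 at 117.2 CPM against 8.21 to 16.9 CPM, and Actg2 at 68.4 CPM against 0 to 2.67 CPM and 0.826% against 0% to 0.0925%. Actb took 8.80% against 77.78% to 89.96%. The 9 CM markers summed to 23880 CPM in these macrophage-like cells against 1213 to 1800 CPM in the other libraries and to 47050 CPM in the T cell-like cells against 1447 to 2665 CPM. The part of CM transcripts in these levels was not tested.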

How the results depend on the processing

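Of the single-actin log2 differences recomputed under alternatives, 335 kept their direction and side of the threshold, 14 passed it newly, 7 lost it and 5 turned. The number of actins called, 0 in most contrasts, became 1 under DESeq2 for P14 against P4 in CM-like, endothelial-like and macrophage-like cells. With no filter on low counts it became 2 and 1 for P14 and P28 against P4 and 1 for P28 against P14 in CM-like cells, and 1 for P14 in endothelial-like and in macrophage-like cells; sums per animal gave 1 in CM-like cells at P28. Thinning gave 2 at P14 in endothelial-like cells. The 2 calls in endothelial-like cells at P28 became 0 with sums of 10 cells and with cells called one by one and 1 with only 2 stages fitted, and the 2 in fibroblast-like cells 1 with sums of 10 cells and with cells called one by one. In macrophage-like cells at P28 there were 2 calls with sums of 50 cells and per animal and 1 after thinning. Leaving out 1 replicate gave 0 to 1 for P14 in CM-like cells (1 without P14 replicate 1), 1 to 2 in endothelial-like cells at P28, 0 to 1 in macrophage-like cells at P28, 0 to 2 in mural-like cells and 0 to 1 for shJun in CM-like cells.

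With cells called one by one, Actc1 turned to 0.29 in endothelial-like and 0.0217 in fibroblast-like cells at P28. Without 1 replicate, Actb in CM-like cells at P14 ranged from −0.78 to 0.28 (0.28 without P14 replicate 2), Acta1 at P28 from −0.54 to 3.66 (−0.54 without P28 replicate 5) and Actc1 for shJun from −0.12 to 0.48 (−0.12 without shNT replicate 2). The difference of the Actc1 share in CM-like cells (−0.633 percentage points, P28 minus P4) turned to 2.19 with cells called one by one, 1.05 after thinning, 2.25 as the mean of the cells' own shares, and 1.83 without the P4 cluster led by atrial genes, an alternative chosen after seeing the data. Without 1 replicate it ranged from −3.07 to 1.76, that of Acta1 from −0.414 to 4.77 and that of Actg2 from −0.0396 to 0.336. The Actb share difference turned to −0.79 with cells called one by one and −0.858 as the mean of the cells' shares.

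The unthinned shares of CM-like cells with a UMI of Actc1, Acta1, Acta2, Actg2, Actb and Actg1 were 99.72%, 19.54%, 66.14%, 38.97%, 83.73% and 46.21% at P4 and 99.52%, 2.73%, 23.84%, 26.57%, 52.87% and 20.38% at P14. At P28 they were 99.95% for Actc1, 38.61% for Acta1 (16.43% after thinning), 49.44% for Acta2, 30.05% for Actg2, 81.02% for Actb and 37.51% for Actg1. Counts of genes called depended on the setting: over the alternatives they ran in CM-like cells from 2 to 922 (main value 24) for P7, 30 to 1218 (496) for P14 and 92 to 1298 (696) for P28 against P4, and from 0 to 128 (5) for P28 against P14; the cause was not tested. The fit with the replicate block (the chips that shNT and shJun animals share) called 0 actins in CM-like, fibroblast-like and macrophage-like cells and 6 genes in CM-like cells. Counts of actins called under the other alternatives are given without the share of all genes called in the same setting.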
